A study of Mus musculus with 59 samples.

Results

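The genes described here lie on mouse chromosome 11 and were expressed in cultured neurons at a mean of at least 2 RPKM (reads scaled to gene length and library size) over 20 neuron libraries. This rule kept 826 genes of the 27389 entries in the culture table. A further 439 of the 1265 entries placed on chromosome 11 lay below the minimum, and 45 of these were at 0 in every neuron library. Genes on other chromosomes that passed the same minimum, 8870 in all, were the comparison. Chromosome 11 was chosen by the mutant to wild-type neuron ratio seen earlier in these same libraries. That ratio is therefore given as a description, with no test, and the tests use only glia, spinal cord and the partner layer. The files hold RNA values only, so the number of gene copies was not measured here.

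The study used 59 RNA-seq libraries to follow SOD1_G93A mutant and WT (wild-type) mouse cells and tissue, a model of amyotrophic lateral sclerosis. In sandwich cultures a neuron layer and a glia layer were kept together, and RNA was taken from either layer at 3, 7 and 14 days. Of the neuron libraries, 9 were SOD1_G93A mutant (6 beside SOD1_G93A mutant glia and 3 beside WT glia) and 11 were WT (6 beside SOD1_G93A mutant glia and 5 beside WT glia). The 23 glia libraries held 12 SOD1_G93A mutant and 11 WT samples. The 16 whole spinal cords were 8 SOD1_G93A mutant and 8 WT, from 1 female and 1 male per genotype and age; the ages were 4, 8, 12 and 17 weeks. The labels name no strain, no promoter for the mutant SOD1 and no source of the cultured neurons. They also do not say whether the mutant neuron libraries came from more than 1 cell line or animal, so spread and p-values here measure differences between these libraries, which may be technical.

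Most genes are transcribed from both copies of a chromosome, and the RNA from a gene commonly follows its number of copies. Feedback, turnover of surplus transcripts or limiting regulators can hold single genes nearer to their usual level. Mouse embryonic stem cells, from which motor neurons are often made in culture, are known to gain whole chromosomes during growth. Mouse chromosome 11 carries the Hoxb cluster, proteasome and mitochondrial genes, the tumour suppressor Trp53, a cluster of inflammatory chemokines, the astrocyte filament gene Gfap and the neuronal microtubule gene Mapt.

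The stretch just before the gene start is shown for 4 members that span the range of ratios: Psmb6, a proteasome subunit at 1.44, just above the upper quartile of 1.42; Gfap, far above it; Sparc, a secreted matrix protein close to 1; and Lgals9, a galectin, far below. Each is 250 bases from RefSeq on GRCm38.p6, read 5′ to 3′ on the strand of the gene, and capitals mark every CG. The Psmb6 stretch is chr11:70525107-70525356 on the plus strand and holds 10 CG. On the minus strand, the Gfap stretch is chr11:102897201-102897450 with 2 CG, that of Sparc is chr11:55420081-55420330 with 4 CG, and that of Lgals9 is chr11:78984925-78985174 with 3 CG.
Psmb6: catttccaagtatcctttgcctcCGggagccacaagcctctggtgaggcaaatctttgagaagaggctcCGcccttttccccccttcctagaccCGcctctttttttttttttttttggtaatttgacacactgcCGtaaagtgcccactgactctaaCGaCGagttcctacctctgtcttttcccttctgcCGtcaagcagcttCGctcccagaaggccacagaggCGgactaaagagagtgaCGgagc
Gfap: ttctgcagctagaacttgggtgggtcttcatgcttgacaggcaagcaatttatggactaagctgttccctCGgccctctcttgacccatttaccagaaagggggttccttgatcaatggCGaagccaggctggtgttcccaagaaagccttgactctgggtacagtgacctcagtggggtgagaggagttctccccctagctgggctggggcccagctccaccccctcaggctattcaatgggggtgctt
Sparc: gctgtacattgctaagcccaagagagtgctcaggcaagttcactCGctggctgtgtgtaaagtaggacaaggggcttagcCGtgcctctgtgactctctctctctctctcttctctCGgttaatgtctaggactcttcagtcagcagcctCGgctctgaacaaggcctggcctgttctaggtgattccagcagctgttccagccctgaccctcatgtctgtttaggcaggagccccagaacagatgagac
Lgals9: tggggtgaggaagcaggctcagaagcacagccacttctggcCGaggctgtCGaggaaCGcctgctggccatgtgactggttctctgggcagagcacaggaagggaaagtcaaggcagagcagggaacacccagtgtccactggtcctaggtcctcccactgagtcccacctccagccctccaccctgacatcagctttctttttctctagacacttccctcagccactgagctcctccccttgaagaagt

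Of the members, 630 had an entry in the promoter table and 499 had exactly 1, over which CG was counted per 250 bases. Members at a mutant to wild-type neuron ratio of at least 1.5 had a median of 15.0 CG (57 genes), those near 1 (0.8 to 1/0.8) had 16.0 (147 genes) and those above this range and under 1.5, called intermediate, had 18.0 (286 genes). The 9 members below 0.8 had a median of 3.00, near the counts in the printed stretches of Lgals9, Sparc and also Gfap, whose ratio was high. Expressed genes on other chromosomes had a median of 17.0 (5240 genes), and all promoters with 1 entry had a median of 5 (22862 genes). The letters TATAAA, searched on both strands, were found in 31 of the 499 members (6.21%), in 5.80% of expressed genes on other chromosomes and in 13.6% of all promoters of that length. These counts describe the letters in a fixed window and were not tested.

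Depth overlapped between the genotypes. Neuron libraries held 6.37 to 29.3 M (mega) reads on genes, glia 3.13 to 22 M and spinal cord 9.71 to 49.1 M. The median member had 290 to 1182 reads per neuron library. Neuronal identity was checked by markers, whose rescaled values were summed per library. The ranges pool days 3, 7 and 14, over which levels changed. In wild-type neurons the mean of Mapt was 358, 199 and 40.8 on these days, and that of Gfap was 3.22, 3.25 and 22.9. The 8 neuronal markers found of 9 summed to 293 to 1730 in mutant and 263 to 2068 in wild-type neurons, and the 5 motor neuron markers to 33.6 to 308 and 28.3 to 511. Markers of other cells were present too: 6 of 6 microglial markers summed to 41.9 to 359 in mutant and 26.3 to 804 in wild-type neurons, 6 of 6 astrocyte markers to 19.4 to 422 and 15.8 to 325, and 5 of 5 oligodendrocyte markers to 24.1 to 77.3 and 13.8 to 87.7. All 5 fibroblast markers summed to 9.89 to 123 in mutant and 17.1 to 154 in wild-type neurons, with Lum at 0 in some libraries of both. The 5 pluripotency markers found of 6 summed to 0.562 to 74.5 in mutant and 0.397 to 49.5 in wild-type neurons. Pou5f1, Zfp42 and Tdgf1 were at 0 in some libraries of both, and Utf1 in some wild-type libraries. The mutant to wild-type ratios of Pou5f1, Zfp42 and Utf1 were 4.71, 4.64 and 4.48. The wild-type medians of these genes were low, at 0.183, 0.0491 and 0.126. The ratio of Nanog was smaller, at 2.42, and that of Tdgf1 was the smallest of the 5. The part of these other cells in the ratios was not tested.

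The day-3 neuron libraries numbered 2, 1 of each genotype and both beside mutant glia, stood apart from the others of that day. Their rescaling factors were 0.835 (mutant) and 0.821 (wild type), against 1.45 to 1.68 in the other 4 day-3 libraries and 0.869 to 0.971 on days 7 and 14. Without both, an alternative chosen after seeing the data, the median member ratio described next was 1.34 in place of 1.33. Then 142 members in place of 115 were at 1.5 or more, and 230 in place of 225 were near 1, meaning 0.8 to 1/0.8.

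Most chromosome 11 genes were higher in mutant than in wild-type neurons, by a similar median amount on each day. For each gene and day the ratio was the mean of the mutant libraries over the mean of the wild-type libraries after median-of-ratios rescaling, and the 3 days were joined as a geometric mean. The median member stood at 1.33 (quartiles 1.23 and 1.42), against 0.968 (0.907 and 1.04) for genes on other chromosomes. On days 3, 7 and 14 the median member stood at 1.32, 1.35 and 1.32. Divided by the median of the other chromosomes on the same day, which was chosen after seeing the data, the median member stood at 1.37. In bulk RNA, a difference in the number of cells of a type and a difference in RNA per cell cannot be told apart.

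**Figure D1:**
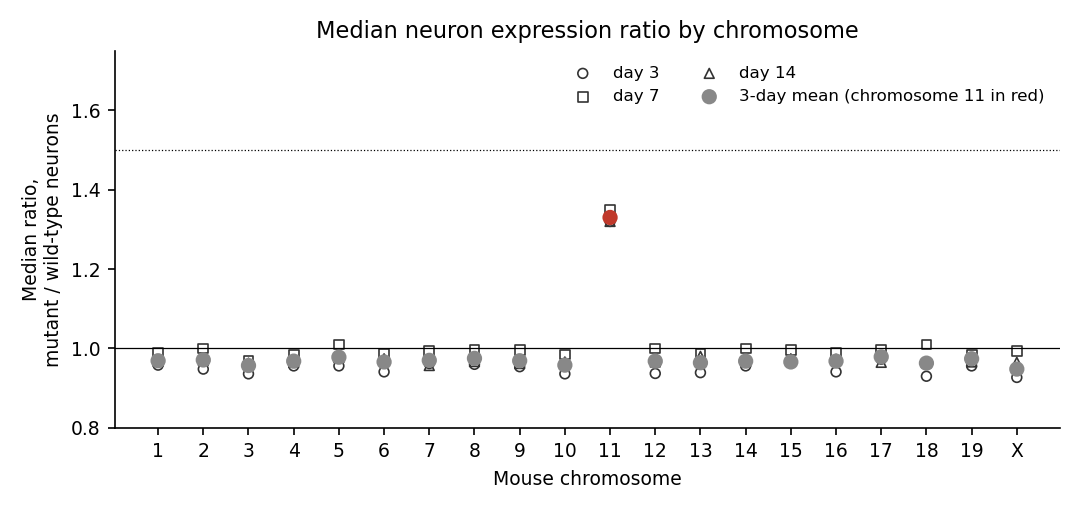
Median mutant to wild-type ratio of the neuron libraries (y axis, no unit) for the genes of each mouse chromosome at a mean of at least 2 RPKM (x axis); filled points are 3-day means, open marks single days, and the dotted line is 1.5. Chromosome 11 sits at 1.33 and the 19 other chromosomes between 0.948 and 0.979.

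The other 19 chromosomes had medians between 0.948 (chromosome X) and 0.979 (chromosome 17). The highest median of another chromosome on a single day was 1.01, on day 7. The share of genes at 1.5 or more was between 0.571% (chromosome 19) and 2.66% (chromosome X) on the other chromosomes, and 13.9% on chromosome 11.

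All 9 mutant libraries were higher than all wild-type libraries of their day. Each library was set against the mean of the wild-type libraries of its day, leaving the library itself out where it was wild type. On day 3 the median member stood at 1.37, 1.20 and 1.35 in the mutant and 1.02, 0.986 and 0.984 in the wild-type libraries. On day 7 these medians were 1.26, 1.37 and 1.32 against 0.977, 0.985, 0.980 and 1.02. On day 14 they were 1.31, 1.30 and 1.31 against 0.989, 1.02, 0.950 and 0.996. The genotypes did not overlap on any day, and the mutant libraries had a mean of 1.31 ± 0.0543 (SD, n = 9) against 0.992 ± 0.0216 (SD, n = 11).

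**Figure D2:**
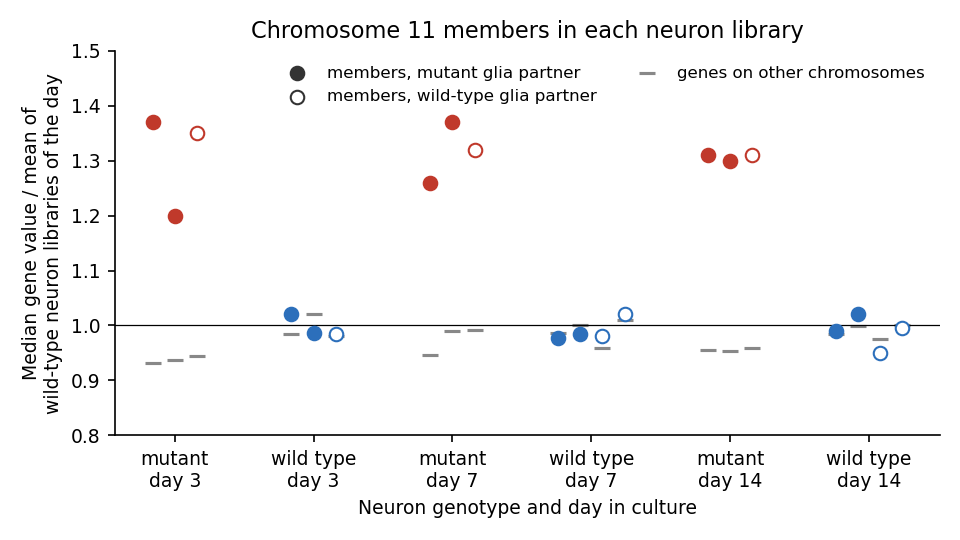
Median over the chromosome 11 members in each neuron library, relative to the mean of the wild-type libraries of the day (y axis, no unit), by neuron genotype and day (x axis); filled circles had SOD1_G93A mutant glia as partner, open circles WT glia, and grey dashes give genes on other chromosomes. All 9 mutant libraries lie between 1.20 and 1.37 and all 11 wild-type libraries between 0.950 and 1.02.

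The lowest mutant value, 1.20, belonged to replicate 2 beside mutant glia on day 3. With mutant glia as partner the mutant libraries had a mean of 1.30 ± 0.0655 (SD, n = 6), and with wild-type glia 1.33 ± 0.0208 (SD, n = 3). The ratio of mutant to wild-type neurons, taken within each partner, had a median of 1.32 beside mutant glia and 1.33 beside wild-type glia.

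Sorted by size, 115 members (13.9%) had a 3-day ratio of 1.5 or more, 470 (57.0%) were intermediate, 225 (27.3%) were near 1, meaning 0.8 to 1/0.8, and 15 (1.82%) were below 0.8. The count at 1.5 or more moved with the processing: it was 163 (19.8%) relative to the median of the other chromosomes, which was chosen after seeing the data, 63 with a pseudocount of 1 and 45 at a minimum mean of 10 RPKM. Over all genes in the comparison, chromosome 11 included, 2.47% were at 1.5 or more and 83.8% near 1. Because these members were selected on this contrast, nothing is read from the gap. The remaining member, Pyy, had no 3-day ratio. Pyy encodes the gut hormone peptide YY: on day 3 it stood at 34.1, 34.7 and 33.1 in the mutant and 8.32, 18.9 and 9.35 in the wild-type libraries, and on day 14 it was listed at 0 in all 4 wild-type libraries.

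In 659 members (79.8%) the ratio was above 1 on all 3 days, as it was in 9.95% of genes on other chromosomes. For 132 members (16.0%) every mutant library lay above every wild-type library on all 3 days, against 1.5% of all genes and 0.147% of those on other chromosomes. Single days gave 333, 327 and 382 members without overlap on days 3, 7 and 14, where the shares of all genes were 6.14%, 6.8% and 6.44%. Nothing is read from these counts, since the members were selected on this contrast.

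Which members passed 1.5 differed from day to day. On day 3, 189 members were at 1.5 or more, on day 7 230 and on day 14 157, while 35 were so on all 3 days and 423 on none. Near 1 were 275, 229 and 275 members on the 3 days, and 48 were near 1 on all of them. Across 825 members, the log2 ratios of days 3 and 7 had a Pearson correlation of 0.48, those of days 7 and 14 of 0.18, and those of days 3 and 14 of 0.04. These are across genes of the same chromosome, and genes are not independent replicates.

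The shift ran along the whole chromosome. Counted in bins of 10 Mb on mm9, the build of the deposited positions, the median ratio ran from 1.28 (90 to 100 Mb, 88 members) to 1.36 (110 to 120 Mb, 87 members), so all 13 bins stood at 1.28 or above. At the first bin (0 to 10 Mb, 59 members) it was 1.34 and at the last (120 to 130 Mb, 36 members) 1.34. Members at 1.5 or more made up 5.56% (120 to 130 Mb) to 33.3% (10 to 20 Mb, 5 of 15 members) of a bin.

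Among 811 stretches of 15 neighbouring members, the lowest median was 1.20, from Gemin5, a splicing-complex assembly factor, to Wnt9a, a secreted Wnt ligand. The highest was 1.42, from Coasy, the enzyme of the last steps of coenzyme A synthesis, to Rundc1. All stretches of that length thus lay between 1 and 1.5. Members near 1 made up 12.9% (40 to 50 Mb) to 35.2% (90 to 100 Mb) of a bin.

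**Figure D3:**
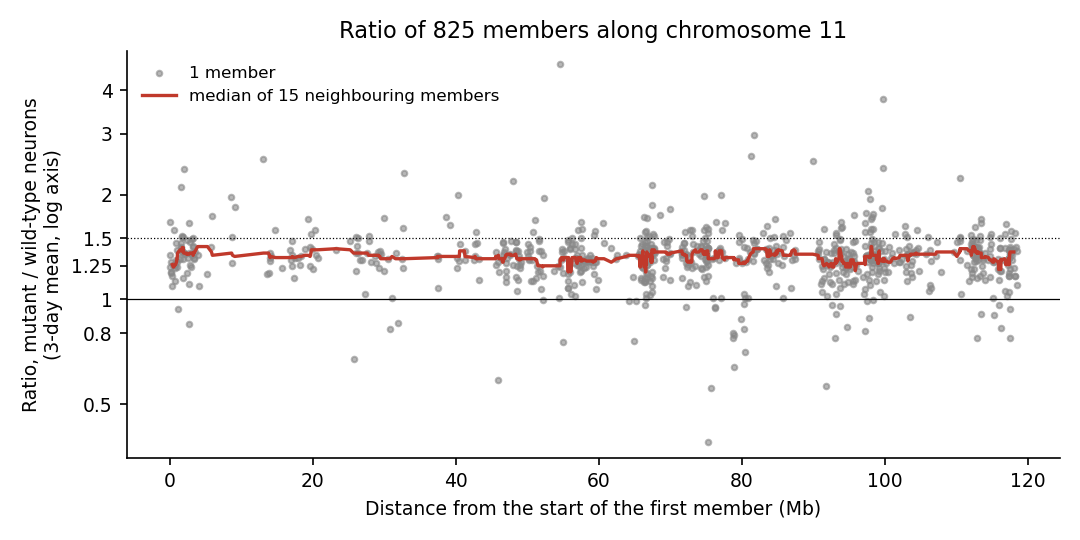
Mutant to wild-type neuron ratio (y axis, 3-day mean, log axis) of the 825 members with a ratio, by distance in Mb from the start of the first member (x axis); grey points are single members and the red line is the median of 15 neighbours. The line stays between 1.20 and 1.42 over the whole chromosome.

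Ratios were lower at higher expression, on chromosome 11 and on the other chromosomes alike. Members at a mean of 2 to 5 RPKM had a median ratio of 1.38, those at 5 to 10 had 1.35, at 10 to 20 1.33, at 20 to 50 1.31, and at 50 or more 1.29. Genes on other chromosomes ran in the same order, with 1.00, 0.975, 0.970, 0.954 and 0.943, so the fall was not particular to the members. The share of members at 1.5 or more was 34.8%, 15.8%, 8.02%, 10.2% and 5.34% from the lowest class to the highest. On other chromosomes this share was 4.15% in the lowest class and 0.529% in the highest. The spread narrowed too: quartiles were 1.20 and 1.59 in the lowest class and 1.20 and 1.37 in the highest. The median member of the lowest class had 59.0 to 197 reads per neuron library, and that of the highest class 1280 to 5404. The part of read depth in the wider spread was not tested.

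**Figure D4:**
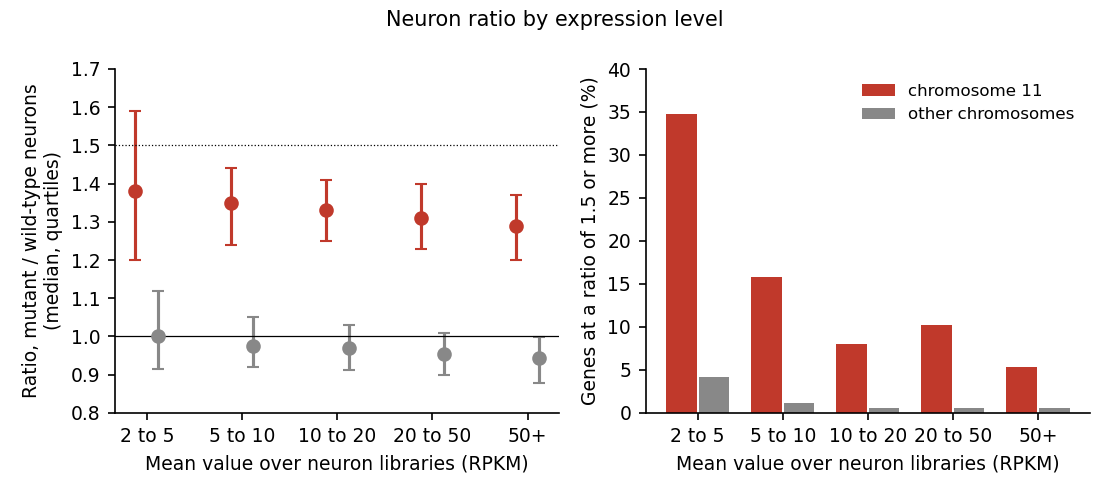
Left, median and quartiles of the mutant to wild-type neuron ratio (y axis) by mean value in RPKM (x axis); right, percent of genes at a ratio of 1.5 or more, with chromosome 11 in red and other chromosomes in grey. The chromosome 11 median goes from 1.38 at 2 to 5 RPKM to 1.29 at 50 or more. Its share at 1.5 or more goes from 34.8% to 5.34%. The median of other chromosomes goes from 1.00 to 0.943.

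Members were also split by their level in wild-type neurons over that in wild-type glia, a split chosen after seeing the data. The 12 members under 0.25, more abundant in the glia layer, had a median ratio of 0.925, with 4 of them below 0.8 and 3 at 1.5 or more. From 0.25 to 1 the median was 1.31 (371 members), from 1 to 4 it was 1.34 (400 members), and at 4 or more it was 1.39 (42 members). On other chromosomes the same classes had 0.989, 0.959, 0.971 and 1.01. Of the 206 genes under 0.25 there, 22.8% were below 0.8 and 8.74% at 1.5 or more, so a wide spread was not particular to the members. At a mean of at least 10 RPKM the members' medians were 0.925, 1.30, 1.33 and 1.32 from the lowest class to the highest (6, 228, 285 and 29 members), so the top class no longer had the highest median. At that minimum, the share at 1.5 or more in the top class was 17.2%, beside 1.93% on other chromosomes. The lowest class is small, and these medians were not tested.

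The 10 members with the largest ratio among those at a mean of 10 RPKM or more and without overlap on any day ran from 1.52 to 2.05. Ghdc (chr11:100627346-100632272) came first: its rescaled values were 12.9, 6.30 and 11.8 in mutant and 5.71, 3.07 and 4.69 in wild-type neurons on day 3. On day 7 Ghdc stood at 9.11, 15.9 and 14.8 against 6.78, 5.95, 5.76 and 6.71, and on day 14 at 16.3, 19.2 and 17.3 against 10.1, 12.0, 9.12 and 8.58. All mutant values were above the wild-type values of their day, and its ratio was 2.05.

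Aarsd1, an alanyl-tRNA editing protein, had a ratio of 1.73 and stood at 25.7 to 60.9 (median 38.6) in mutant and 16.0 to 35.8 (median 20.1) in wild-type neurons. Cntnap1, an axonal protein of the paranodal junction, had a ratio of 1.7. Its mutant libraries ran from 8.97 to 19.2 (median 15.9) and its wild-type libraries from 3.90 to 15.2 (median 8.88). Tbkbp1, an adaptor of the kinase TBK1, stood at 1.62, the vesicle-tethering subunit Vps53 at 1.59, and Ahsa2, a relative of HSP90 activators, at 1.59. Tubg1, the gamma-tubulin of the centrosome, Adam19, a membrane protease, and Nt5c3l, a nucleotidase, each stood at 1.56, and Gemin4, of the SMN complex, at 1.52. For all 10, the libraries of the genotypes were apart within each day, as the rule required.

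Adam19 was the least even of the 10: 1.13 on day 3, 1.71 on day 7 and 1.97 on day 14. Tubg1 was highest on day 3, with 1.77, 1.42 and 1.52. Gemin4, at 1.54, 1.54 and 1.47, and Nt5c3l, at 1.52, 1.57 and 1.58, were nearly level.

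Members just above a ratio of 1.5 were Ppm1e, Ccdc40, Aurkb, Nefh and Rgs9 (1.501 to 1.507), and just below were Smcr7, Cdc42ep4, Zkscan17, Mtif2 and Dhrs13 (1.497 to 1.499). All 5 just below were free of overlap on all 3 days, while none of the 5 just above was. Around the minimum level, Kpna2, C1ql1, Gp1ba, P2rx5 and Slc26a11 lay just inside (2.01 to 2.07 RPKM), with ratios from 1.16 to 2.39. Arsg, Slc22a21, Gal3st1, Gsg2 and Tbx2 lay just outside (1.94 to 1.99 RPKM), with ratios from 1.36 to 1.56.

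Of the genes near 1 at a mean of 20 RPKM or more, the 10 closest to 1 stood between 0.997 and 1.04. Some were steady. Zfp207, a kinetochore-binding zinc finger protein, stood at 32.4, 38.7 and 32.3 in mutant and 34.7, 30.6 and 34.5 in wild-type neurons on day 3, and its ratios were 1.04, 0.908 and 1.09. Plscr3, a mitochondrial phospholipid scramblase, had ratios of 1.07, 0.916 and 1.14, and the translation initiation factor Eif1 had 0.940, 1.15 and 1.03. The genotypes of these 3 genes overlapped on every day.

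Scpep1, a lysosomal carboxypeptidase, was near 1 on each day too, at 1.11, 0.906 and 1.02, as was Timp2, an inhibitor of matrix metalloproteases. Timp2 had its highest ratio, 1.24, on day 14, where its mutant libraries (240, 259 and 225) all lay above its wild-type libraries (198, 192, 189 and 204). Ccl6, Hoxb8, Wsb1 and Itga3 each left the range on at least 1 day. Ccl6, a chemokine of myeloid cells, had ratios of 0.871, 0.577 and 2.22, and ran from 3.90 to 130 in mutant and 6.63 to 150 in wild-type libraries. Hoxb8 stood at 1.37, 1.01 and 0.805. Wsb1, a ubiquitin ligase adaptor, had 0.967, 1.28 and 0.826, and the integrin subunit Itga3 had 1.28, 0.758 and 1.09.

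Sparc, whose upstream stretch is printed above, was the most abundant of them, at a mean of 898 RPKM. On day 3 it stood at 242, 27.8 and 217 in mutant and 195, 23.6 and 192 in wild-type neurons. On day 14 it stood at 2068, 1989 and 2159 against 2045, 2149, 2027 and 1683. The genotypes overlapped on every day, and the low day-3 value of each genotype belonged to the library numbered replicate 2 beside mutant glia.

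The 6 lowest ratios at a mean of 10 RPKM or more were those of Lgals9 (0.555), Col1a1 (0.564), Ccl12 (0.638), Ccl4 (0.705), Ntn1 (0.761) and Ccl2 (0.773). Lgals9 stood at 8.31, 2.71 and 9.55 in mutant and 21.8, 4.47 and 27.1 in wild-type neurons on day 3, and at 15.2, 11 and 16.5 against 29.3, 27.5, 36 and 47.8 on day 7. On day 14 its ratio was 1.09. Its genotypes were apart only on day 7.

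Col1a1, a type I collagen chain abundant in fibroblasts, ran from 4.11 to 53.2 (median 15.9) in mutant and from 8.59 to 79.0 (median 38.4) in wild-type neurons, with ratios of 0.433, 0.446 and 0.933. The fibroblast markers on other chromosomes went with it: Col1a2 had a ratio of 0.676, Col3a1 0.598, Dcn 0.413 and Lum 0.472. The part of fibroblasts in the Col1a1 ratio was not tested.

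The chemokines Ccl2, Ccl4 and Ccl12, which attract monocytes and other leukocytes, had ratios of 0.522, 0.526 and 0.517 on day 3 and 1.45, 0.959 and 0.883 on day 14. For each of them the genotypes overlapped on every day, and libraries differed widely. Ccl12 stood at 15.4, 1.07, 25.4 and 0.309 in the wild-type libraries of day 14. Microglial markers had ratios between 0.785 (Cx3cr1) and 1.15 (Itgam), and their part in the chemokine ratios was not tested. Beside wild-type glia, where each day had 1 mutant library, the ratio of Ccl2 was 1.02. There the mutant library stood at 18.7 against 30.8 on day 3, and at 38.5 against 45.9 and 68.0 on day 7. On day 14 it stood at 26.6 against 18.2 and 2.67.

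Ntn1, the axon guidance cue netrin-1, was the most abundant of the 6. Its values were 83.9, 17.2 and 86.6 in mutant and 42.6, 32.2 and 36.5 in wild-type neurons on day 3, a ratio of 1.69. By day 14 they were 135, 70.2 and 107 against 223, 220, 181 and 279, a ratio of 0.460, with the mutant libraries all below the wild-type libraries.

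By function, members of shared machines lay close to the common shift. Of 16 proteasome and ubiquitin genes, 1 was at 1.5 or more, 13 were intermediate, and 2 were near 1, with a median of 1.33. Psmb6, a catalytic subunit of the proteasome (chr11:70338869-70341361), stood at 265, 220 and 276 in mutant and 189, 170 and 194 in wild-type neurons on day 3. On day 7 it stood at 237, 206 and 149 against 102, 134, 149 and 140, and on day 14 at 131, 140 and 144 against 92.0, 109, 87.3 and 94.9. Every mutant library was above the wild-type libraries of its day, although the closest pair on day 7 both round to 149, and the ratio was 1.44.

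Other subunits on the chromosome lay close by. The ATPase subunit Psmc5 had 1.34, and the lid or base subunits Psmd3, Psmd11 and Psmd12 had 1.36, 1.37 and 1.35. The activator subunit Psme3 stood at 1.35, and Psmb3 at 1.27. Skp1a, of the SCF ubiquitin ligases, stood at 1.26 and the deubiquitinase Usp22 at 1.29. The 25 proteasome subunits that other chromosomes encode had a median of 0.974, with 24 near 1. The exception was Psmb5 on chromosome 14, at 1.34, named here after its value was seen.

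Of the mitochondrial genes, 22 of 26 were intermediate and 4 near 1, with a median of 1.36. The list also holds genes whose products act mainly outside mitochondria: the nucleoside diphosphate kinases Nme1 and Nme2 stood at 1.46 and 1.40, Ormdl3, a membrane protein of the endoplasmic reticulum, at 1.24, and Acly, the cytosolic ATP-citrate lyase that uses mitochondrial citrate, at 1.33. Uqcrq, a complex III subunit, stood at 1.30. For Acly the ratio was 1.05, 1.38 and 1.63 on days 3, 7 and 14. Among mitochondrial ribosome subunits, Mrpl10 stood at 1.40, Mrps7 at 1.42 and Mrpl12 at 1.32.

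Of 7 listed cytosolic ribosomal genes on the chromosome, 4 were members: Rpl26 (1.34), Gnb2l1, the ribosome-bound scaffold RACK1 (1.26), Rpl38 (1.26) and Rpl23 (1.18). Gnb2l1 stood at 574, 486 and 518 in mutant and 390, 436 and 384 in wild-type neurons on day 3, without overlap. On day 7 it stood at 464, 447 and 360 against 372, 367, 347 and 374, which overlapped, and its genotypes were apart again on day 14. The 47 ribosomal protein genes of other chromosomes had a median of 0.917, with 42 near 1, 2 below 0.8 and 3 at 1.5 or more. Ribosomal protein genes have many near-identical processed copies, so reads can be split between them and their values are uncertain.

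Neuronal and synaptic genes were spread more widely. Of 35 members, 9 were at 1.5 or more, 17 intermediate, and 9 near 1, with a median of 1.37 and a range of 1.02 to 2.59. The share at 1.5 or more was 13.9% over all members and 34.8% over those at 2 to 5 RPKM. No neuronal list from other chromosomes was compared, and the part of function in this spread was not tested. Ywhae, the signalling adaptor 14-3-3 epsilon, was the most abundant at a mean of 623 RPKM. It stood at 727, 847 and 730 in mutant and 649, 627 and 579 in wild-type neurons on day 3, and at 655, 542 and 600 against 436, 429, 488 and 487 on day 14. Its genotypes did not overlap on any day, and its ratio was 1.26.

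Mapt, which encodes tau, had ratios of 1.16, 1.64 and 1.33. Its wild-type libraries on day 14 (32.2, 40.3, 30.4 and 60.4) reached above its mutant libraries (53.6, 57.2 and 51.6). Rtn4, which encodes Nogo, stood at 1.30 and the sodium pump subunit Atp1b2 at 1.73. The genotypes of Atp1b2 overlapped on every day. Its mean in wild-type neurons went from 20.1 on day 3 to 331 on day 14, while that of Mapt went from 358 to 40.8. Presynaptic Vamp2 had 1.14, postsynaptic Dlg4 (PSD-95) 1.26, and Cdk5r1, the activator of the kinase CDK5, 1.58. At the top of the list stood the transcription factor Lhx1, with 2.59 at a mean of 2.80 RPKM.

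Nefh, the heavy neurofilament of motor axons, had a ratio of 1.51. On day 3 its mutant libraries (17.7, 30.9 and 18.9) overlapped its wild-type libraries (21.4, 28.2 and 19.8). On day 14 they stood at 40.6, 69.0 and 51.6 against 17.0, 30.2, 16.0 and 40.4, without overlap.

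The Hoxb genes, which give cells their position along the neural tube, differed along the cluster. The 3-day ratios were 1.41, 1.27, 1.55, 1.53, 1.19, 0.908, 1.04 and 0.775 for Hoxb2, Hoxb3, Hoxb4, Hoxb5, Hoxb6, Hoxb7, Hoxb8 and Hoxb9. Of the 8, 2 were at 1.5 or more, 2 intermediate, 3 near 1 and 1 below 0.8; none was free of overlap on all 3 days. On day 3 Hoxb4 stood at 46.2, 57.1 and 52.0 in mutant and 18.9, 48.4 and 21.2 in wild-type neurons, and Hoxb5 at 140, 199 and 149 against 36.6, 190 and 33.3. The wild-type library numbered 2, which stood apart, was the only wild-type library of that day within the range of the mutant libraries for these 2 genes. Without both libraries numbered 2, a choice made after seeing the data, the 3-day ratio was 1.74 for Hoxb4, 1.99 for Hoxb5, 1.54 for Hoxb2 and 0.771 for Hoxb9. On day 7 Hoxb4 stood at 43.6, 37.7 and 39.9 in mutant and 21.5, 23.3, 31.6 and 19.8 in wild-type neurons. On day 14 all ratios of the cluster lay between 0.805 and 1.30.

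Cell-cycle and DNA repair genes had a median of 1.33, with 3 of 21 at 1.5 or more, 12 intermediate, and 6 near 1. The polymerase subunit Pold2 had 1.66 and the topoisomerase Top2a 1.47. Proliferation genes were uneven over time: Top2a had 1.77, 0.999 and 1.79, and the mitotic kinase Aurkb 2.08, 0.974 and 1.68. The genotypes of both genes overlapped on every day. On day 3 Aurkb stood at 17.6, 2.08 and 13.9 in mutant and 7.27, 2.34 and 6.48 in wild-type neurons. Trp53 had 1.12, with 32.4, 20.9 and 30.3 in mutant and 25.8, 17.6 and 23.6 in wild-type neurons on day 3. On day 7 it stood lower in mutant neurons, at 32.2, 19.4 and 18.4 against 30.1, 24.7, 33.6 and 21.6 (ratio 0.850). It stood at 31.9, 35.2 and 29.0 in mutant and 22.8, 30, 20.4 and 24.4 in wild-type neurons on day 14 (ratio 1.31), and the genotypes overlapped on every day. Its transcriptional target Ccng1 had 1.08.

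Glial, matrix and immune genes had the lowest median and the widest range of the chromosome 11 lists. Of 33 members, 3 were at 1.5 or more, 6 intermediate, 16 near 1 and 8 below 0.8, with a median of 1.05 and a range of 0.388 to 3.78. The share below 0.8 was 1.82% over all members. It was 22.8% over genes of other chromosomes whose wild-type neuron level was under 0.25 of that in glia. No glial list from other chromosomes was compared. In none of the 33 did every mutant library lie above every wild-type library on all 3 days. The astrocyte aldolase Aldoc had 1.29 and the growth factor binding protein Igfbp3 1.09. Several were below 1 on day 7 and above 1 on day 14: Cd68, a lysosomal protein of phagocytes, had 0.780, 0.669 and 1.7, and progranulin, encoded by Grn, had 1.06, 0.746 and 1.44.

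Gfap, chosen here after its values were seen, had the highest ratio at a mean of 10 RPKM or more, 3.78. It stood at 12.1, 1.86 and 13.6 in mutant and 2.34, 2.07 and 5.25 in wild-type neurons on day 3. On day 7 it stood at 21.2, 9.69 and 7.56 against 5.29, 2.83, 2.02 and 2.88, and on day 14 at 140, 65.0 and 127 against 24.9, 17.5, 21.6 and 27.7. The genotypes overlapped on day 3 and were apart on days 7 and 14. Its level in wild-type neurons was 0.0507 of that in wild-type glia. Of the other astrocyte markers, all on other chromosomes, Aldh1l1 had a ratio of 2.69, Slc1a2 1.38, Slc1a3 1.23, Aqp4 1.00 and Gja1 0.868. The part of astrocytes in the Gfap ratio was not tested.

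In the glia layer the members' median lay close to that of all genes. The members' level in mutant against wild-type glia was not used to choose them, and was tested with limma on log2(value + 1) over all 14279 genes with at least 1 in at least 2 libraries. Of 807 members tested, the median log2 difference was 0.012 (quartiles -0.06 and 0.06), against 0.007 over all genes. As a fold this is 1.008, beside the ratio of 1.33 in neurons; the difference between the layers was not tested. This fit did not pair libraries by replicate number. No member passed an adjusted p of 0.05, where 0.105% of all genes did. An unadjusted p under 0.05 was found in 41 members (5.08%), beside 4.48% of all genes.

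Replicate numbers paired the glia libraries: deviations of same-numbered libraries of a day correlated at 0.23 to 0.89 in 15 of 15 pairs. With replicate number within day as a block, 14 of 807 members (1.73%) passed, beside 1.83% of all genes, both directions together. Without the block, the calls over all genes were 1 higher and 14 lower. With it, all 14 members called were lower in mutant glia. The largest were Gria1, an AMPA receptor subunit, at a log2 change of -0.59 (SE 0.13, adjusted p = 0.0424, limma), and Gas7, a growth-arrest gene, at -0.58 (SE 0.11, adjusted p = 0.0227). Next came the chemokines Ccl6 (-0.57) and Ccl9 (-0.54) and the receptor partner Ramp2 (-0.50). Ccl6 ran from 7.4 to 39.9 (median 12.9) in 12 mutant and from 8.80 to 64.0 (median 29.0) in 11 wild-type glia libraries, which overlapped.

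**Figure D5:**
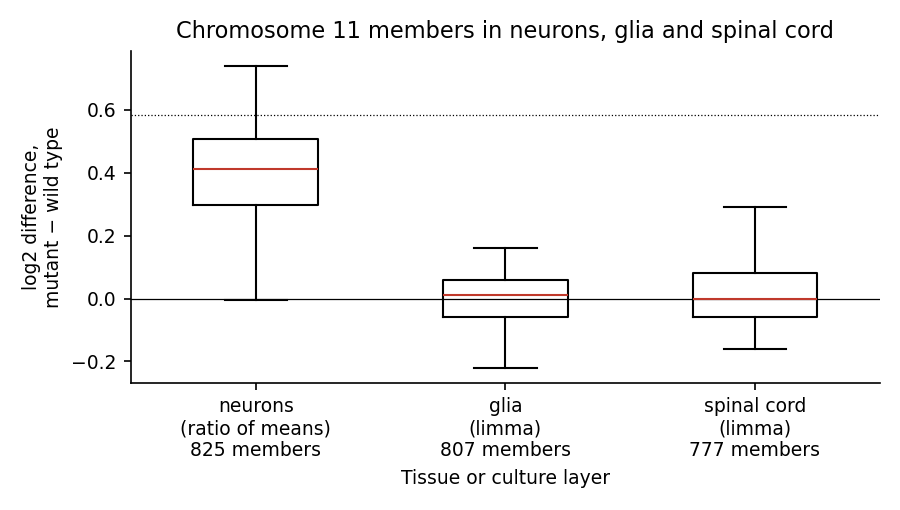
Log2 difference between mutant and wild type (y axis) for the chromosome 11 members in neurons, glia and spinal cord (x axis); boxes are quartiles with the median in red, whiskers run from percentile 5 to percentile 95, and the dotted line is a ratio of 1.5. The neuron box lies well above 0, and the medians of glia and spinal cord are 0.012 and 0.002.

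In whole spinal cord of SOD1_G93A mutant animals the members' median also lay close to that of all genes. Over the 4 ages, with sex as a covariate, the median log2 difference of 777 members was 0.002 (quartiles -0.06 and 0.08), against -0.011 over all genes. Among the members, 52 rose and 16 fell, meaning mutant above or below wild type as a mean over the ages. These were 8.75% of members, beside 8.65% of all 14652 genes tested. Over all genes 963 rose and 305 fell, so rises outnumbered falls there too. On the values as deposited, with no rescaling, 27 members passed, and with 1 library left out 39 to 93 did; the lowest count came without the 8-week mutant male.

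Genes known from microglia and other phagocytes had the largest increases. Cd68 rose by 1.56 (SE 0.10, adjusted p = 1.42e-05, limma) on the log2 scale with 1 added to the value, which understates the change of low genes. Its female and male values were 3.67 and 3.3 in mutant and 2.44 and 3.15 in wild-type cord at 4 weeks, and 47.2 and 44.5 against 2.08 and 3.27 at 17 weeks. At 12 weeks Cd68 stood at 16.9 and 15.9 against 2.70 and 4.10; single ages were not tested. Grn was higher in mutant cord by 1.05 (SE 0.04, adjusted p = 1.09e-06, limma) as a mean over the ages. It stood at 11.1 and 10.6 in mutant and 11.1 and 11.1 in wild-type cord at 4 weeks. At 17 weeks it stood at 58.5 and 53.7 against 9.08 and 9.13. The chemokines Ccl3 (1.54), Ccl12 (1.28) and Ccl4 (1.06) rose too, although the call of Ccl12 was lost without the 12-week wild-type female (adjusted p = 0.0504). In mutant neurons these 5 genes had ratios of 0.638 to 1.05.

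Nefh fell most, with a log2 change of -0.43 (SE 0.07, adjusted p = 0.00407, limma). Its female and male values were 286 and 292 in mutant and 309 and 330 in wild-type cord at 4 weeks, and 122 and 131 against 248 and 206 at 17 weeks. In cultured neurons its ratio was 1.51. Ypel2 fell by 0.33, Kctd2 by 0.29, and Tsen54, a tRNA splicing subunit, and Atp5h, an ATP synthase subunit, by 0.28 each. The calls of Kctd2, Tsen54 and Atp5h were lost under 14, 14 and 18 of 21 alternatives, most of which left out 1 library. On the values as deposited their adjusted p (limma) was 0.136, 0.128 and 0.138.

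No member passed the test for the genotype of the partner layer, with or without replicate number as a block. The values that follow are from the fits without the block, which ignore the pairing of same-numbered libraries. In glia beside mutant against wild-type neurons, no member of 807 passed (all genes 0.00%, limma), 1 member (0.124%) had an unadjusted p under 0.05 beside 0.301% of all genes, and the median log2 difference was -0.014. In neurons beside mutant against wild-type glia, no member of 826 passed (all genes 0.00%), 12 (1.45%) had an unadjusted p under 0.05 beside 1.27% of all genes, and the median was -0.007.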

How the data were processed

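RNA-seq libraries of 20 neuron, 23 glia and 16 spinal cord samples were used. The culture values are RPKM as deposited by the authors, and the cord values are a score on the scale of RPKM, with some values below 0, as deposited by the authors. The amount taken off is not stated in the labels. Bowtie and mm9 are named in the submitters' processing notes. Per the labels' protocols, libraries followed a standard Illumina or a Nextera protocol, without saying which library followed which.

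The members and gene lists were chosen with earlier results of these data known. Chromosomes came from the cord table by gene symbol, with 25 of 1297 matched cord entries dropped as ambiguous. Cord values below 0 were set to 0. Values were rescaled by median-of-ratios factors within neurons, glia and cord, each separately. For the level in wild-type neurons over that in wild-type glia, all neuron and glia libraries were rescaled together. Reads per gene were recovered from the steps between RPKM values, and depth is given from these.

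Tests used limma 3.58.1 in R 4.3.3 (moderated, with a mean trend) on log2(rescaled value + 1). A gene entered if 2 or more libraries reached 1, Benjamini-Hochberg adjustment ran over all genes tested, and calls were made at an adjusted p of 0.05. Glia and neurons were fitted with a mean per pairing and day, cord with genotype-by-age means and sex. Same-numbered glia libraries of a day deviated together in 15 of 15 pairs (lowest r 0.23). In neurons this held in 6 of 7 pairs (lowest 0.07). The main fits of both left replicate number out, so their p-values ignore this pairing. The replicate block was run as an alternative. Ratios and counts used Python 3.11.15, pandas 2.3.3 and NumPy 2.4.6. The limma step was tested on simulated data with independent noise in each library. That simulation leaves out the pairing, so it cannot show how the p-values behave under it.

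Named genes were the 10 largest ratios without overlap on any day (mean of 10 RPKM or more), the 10 closest to 1 (mean of 20 or more), the 6 lowest (mean of 10 or more), the 5 on each side of each threshold, up to 4 of the highest mean per list, and up to 5 per direction in each test. Further list members are given as examples, chosen after their values were seen.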

Additional observations from a re-analysis of the deposited data

Results flagged for a closer look

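Of 105 groups checked, most held a named gene in the 4 wild-type neuron libraries of day 7 or day 14. The others held the median of the members, in those libraries or in the 9 mutant libraries. In 6 groups, each of 4 libraries, the gap of 1 library to the nearest other, over the group's range, was above 0.829. That is Dixon's critical value at 95% for 4 libraries. Chance gives about 1 in 20 such groups. In wild-type neurons on day 14, replicate 2 beside mutant glia stood at 309 for Scpep1, where the other libraries ran from 576 to 606, and at 404 for Igfbp3, where they ran from 284 to 299. On the same day, replicate 1 beside wild-type glia stood at 137 for Skp1a (others 108 to 111). On day 7, replicate 1 of wild-type neurons beside wild-type glia stood at 104 for Hoxb8 (others 22.9 to 30.7) and at 97.4 for Rpl26 (others 44.1 to 48.9). Replicate 1 beside mutant glia stood at 7.15 for Rpl38 on day 7 (others 40.5 to 46.9).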

How the results depend on the processing

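The median neuron ratio of the members, 1.33, ran from 1.29 to 1.37 over 31 alternatives, 1.32 to 1.34 of them with 1 library left out. The count at 1.5 or more, 115, was 45 at a minimum mean of 10 RPKM, where 548 members were left, and 63 with a pseudocount of 1, which draws the ratios of low genes towards 1, and 163 relative to the median of the other chromosomes, chosen after seeing the data; with 1 library left out it ran from 102 to 141. Pairing neuron libraries by replicate number, as a replicate block, gave a median of 1.31, 93 members at 1.5 or more and 257 near 1. The count near 1, 225, ran from 154 to 282.

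For glia, the count of 0 became 14 with the replicate block (262 over all genes, against 15) and ran from 0 to 3 with 1 library left out. It was 3 without day-3 wild-type glia replicate 2 beside mutant neurons, and 1 without either day-14 wild-type glia replicate 1. For spinal cord, 68 calls became 27 on the values as deposited (535 over all genes, against 1268) and ran from 39 to 93 with 1 library left out. It was 44 without 12-week wild-type replicate 1, 43 without 4-week mutant replicate 1 or 8-week wild-type replicate 1, and 39 without 8-week mutant replicate 2; the cause was not tested. Both partner comparisons gave 0 members under every alternative run, the replicate block included.

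The ratio of Ccl2, 0.773, was 1.02 with wild-type glia only, where each day had 1 mutant library. The cord calls of Kctd2, Tsen54 and Atp5h were lost under 14, 14 and 18 of 21 alternatives, and that of Ccl12 without 12-week wild-type replicate 1. Low members carry fewer reads, which limits their single-gene ratios.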
